A study of Mus musculus with 4 samples.

Results

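ATAC-Seq peaks assigned to microRNA and small nucleolar RNA (snoRNA) genes were compared between Sin3B+/+ and Sin3B-/- long-term hematopoietic stem cells (LT-HSCs). ATAC-Seq tags DNA that the Tn5 transposase can reach, so the number of reads in a peak measures how accessible that stretch of chromatin was. The peaks described here were the rows of the deposited peak table whose gene symbol begins with Mir and a digit, with Mirlet, or with Snor. There were 17 of them among 5332 peaks, and they carried the symbols of 14 genes. Of the rows, 11 belonged to 10 microRNA genes, 4 to the microRNA host transcripts Mir22hg and Mir142hg, and 2 to the snoRNA genes Snord104 and Snora17. No let-7 gene had a row.

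Sin3B is a scaffold of a histone deacetylase complex, and the experiment asked how its loss alters accessible chromatin in unstressed LT-HSCs. Sin3B-/- mice carried floxed Sin3B alleles and Vav1-iCre, a recombinase that acts across blood cells from fetal life onwards, so the gene was lost in the whole blood system and not in LT-HSCs alone. The controls are labelled wild type, the study calls them both Sin3B+/+ and Sin3B F/F, and all mice were on a C57BL/6 background, with no ages given for these libraries. LT-HSCs were sorted from bone marrow as cells that lack lineage markers, Flk2 and CD48 and carry Sca-1, cKit and CD150, and each of the 2 libraries per genotype pooled cells from 2 mice, 8 mice in all. Reads came from many cells at once, so more cells with an open site and a wider opening in each cell cannot be told apart.

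The table held only peaks that the authors had already called different between the genotypes, so every member had been selected for a difference before it was described here. Each value is a normalized read level, and how deeply each library was sequenced in total is not known. Levels came in whole steps, which were worth 0.228 (replicate 1) and 0.343 (replicate 2) for Sin3B+/+ and 0.625 (replicate 1) and 1 (replicate 2) for Sin3B-/-. The deleted gene, Sin3b, had 0 rows, so the genotypes could not be checked at that locus here. The median peak of the whole table was 0.75 higher on the log2 scale in Sin3B-/- than in Sin3B+/+ libraries. Within the controls, replicate 1 lay above replicate 2 in 17 of the 17 member peaks and in 87.7% of all peaks. Of the markers listed for the sorted cells, Procr had 2 rows and Slamf1, which encodes CD150, had 1. Neither Flt3, Cd48, Mpo, Elane nor Dntt had a row, and Klf1 was the 1 lineage marker that did. A gene without a row was not necessarily closed, so the sort could not be checked from this table.

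MicroRNAs are short RNAs cut from hairpin precursors by Drosha and Dicer. They guide Argonaute proteins to messenger RNAs, mainly through the seed, bases 2 to 8 of the mature strand, and several of them set the balance between self-renewal and the myeloid and lymphoid fates in blood. Many are processed from the introns of a host gene or from a long noncoding host transcript, so the promoter that drives a microRNA can lie far from its hairpin. SnoRNAs work in the nucleolus, where C/D box snoRNAs guide ribose methylation and H/ACA box snoRNAs guide pseudouridylation, mostly of ribosomal RNA, and in mammals they too are commonly released from introns.

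The mature strands below belong to the microRNAs with a known role in blood and to those at either extreme of the accessibility change. The strand of miR-449c-5p, which is in neither group, is given too. They are shown 5′ to 3′ as RefSeq gives them on GRCm38, with the seed in capitals.
mmu-miR-22-3p: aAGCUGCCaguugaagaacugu
mmu-miR-142a-5p: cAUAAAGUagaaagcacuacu
mmu-miR-142a-3p: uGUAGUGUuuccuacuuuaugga
mmu-miR-23a-3p: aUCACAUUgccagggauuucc
mmu-miR-27a-3p: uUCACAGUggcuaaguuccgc
mmu-miR-24-3p: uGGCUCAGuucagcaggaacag
mmu-miR-210-3p: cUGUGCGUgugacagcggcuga
mmu-miR-449c-5p: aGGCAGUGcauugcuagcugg
mmu-miR-6915-5p: aGGUCAGAgcagauggagguucgu
mmu-miR-3964: aUAAGGUAgaaagcacuaaa

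Some of these seeds were shared with other mouse microRNAs. The seed of miR-449c-5p was shared with miR-34a-5p, miR-34b-5p and miR-449a-5p, that of miR-27a-3p with miR-27b-3p, that of miR-6915-5p with miR-540-3p, and that of miR-24-3p with 4 others. The strands of miR-142a-5p and miR-3964 differed in their seeds, but base 2 onwards of miR-142a-5p matched miR-3964 from its base 1 at 17 of 20 positions. Their assigned peaks changed in opposite directions, but the peak assigned to Mir3964 lies 275043 bp from its hairpin. The gain at Mir142hg depended on how the libraries were scaled, as described below, and a link between these peaks was not tested.

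Accessibility was higher in Sin3B-/- LT-HSCs at 16 of the 17 peaks and lower at 1, the peak assigned to Mir3964. The log2 ratio of the summed levels, Sin3B-/- over Sin3B+/+, ranged from -1.19 for Mir3964 to 2.04 for Mir6915. Its median was 0.71 over the members and 0.76 over the whole table. It was 0.75 over the microRNA gene rows, 0.70 over the host transcript rows and 0.77 over the 2 snoRNA rows. Both Sin3B-/- libraries lay above both controls at 16 peaks and below both at Mir3964, and the groups were likewise separate at all 5332 peaks of the table.

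In limma, fitted to log2(level + 1) over all 5332 peaks with Benjamini-Hochberg adjustment, 16 members passed an adjusted p of 0.05 with a higher level in Sin3B-/- and 1 with a higher level in Sin3B+/+. The same fit called 95.7% of all peaks in the first direction and 4.29% in the other, so the members' 16 and 1 are close to the shares of the whole table. limma shared 1 spread over all peaks, and the standard error of a log2 change was 0.22 for each peak. The p-values describe peaks already selected on these libraries and measure only the spread between the pools. Without Sin3B-/- replicate 2, 9 members were called higher in Sin3B-/- and Mir3964 lower, and the calls over the whole table fell likewise, to 58.5% higher and 4.05% lower. The 7 members no longer called were those of Mir671, Mir210, Mir142hg, Snord104 and Mir23a, the larger Mir7671 peak and the start peak of Mir22hg.

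When each library was instead centred on its own median over the table, 1 member was called higher in Sin3B-/-, Mir6915, and 1 was called lower, Mir3964. On that scale 7.01% of the table was called with a gain in Sin3B-/- cells and 4.29% with a loss. The other 15 member peaks were not called on that scale, so the gains given for them below hold as calls only on the authors' scaling. Of these, 8 had a centred log2 ratio below 0, the lowest being -0.22.

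**Figure D1:**
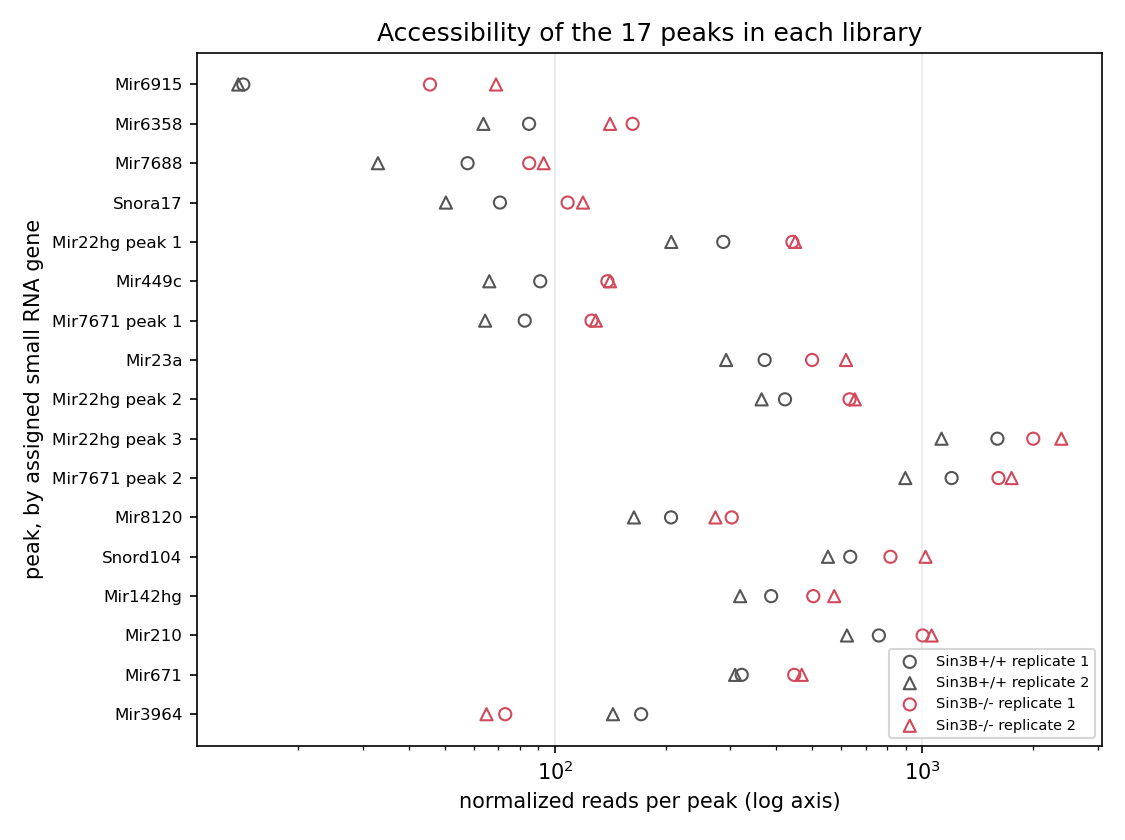
Normalized reads per peak (log axis) in each of the 4 libraries for the 17 peaks, ordered by log2 ratio. Grey symbols are Sin3B+/+ and red symbols Sin3B-/- libraries, with circles for replicate 1 and triangles for replicate 2. At every peak but that of Mir3964 both red symbols lie to the right of both grey ones, and at Mir3964 they lie to the left.

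miR-22 promotes the self-renewal of hematopoietic stem cells and represses Tet2, a DNA demethylation enzyme. Its host transcript Mir22hg (chr11:75461539-75466676, plus strand) had 3 peaks, the most of any member, spaced 1418 and 256 bp apart along the DNA leading into its start. The peak over the start, at chr11:75461043-75461762, held 1599 and 1127 normalized reads in the Sin3B+/+ libraries and 2002 and 2388 in the Sin3B-/- libraries, a log2 ratio of 0.69. Per kilobase it was the most accessible member, with 2471 normalized reads per kb averaged over the libraries. The middle peak, 753 bp upstream at chr11:75460454-75460786, rose from 422 and 365 to 633 and 654, a log2 ratio of 0.71. The outermost peak, 2504 bp upstream at chr11:75458680-75459035, rose from 287 and 207 to 442 and 450, a log2 ratio of 0.85.

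The Mir22hg ratios thus spanned 0.17 log2 units, and whether the 3 peaks differed in their change was not tested. Leaving out 1 library at a time moved the ratio between 0.46 and 0.96 at the start peak and between 0.64 and 1.11 at the outermost one. limma gave adjusted p = 0.00169 at the start, 0.00151 at the middle peak and 0.00014 at the outermost one. The hairpin of Mir22 (chr11:75463716-75463810) lies 1953 bp beyond the start peak. A transcript start of Tlcd2 also lies within 1000 bp of the centre of that peak, so its reads cannot be given to 1 promoter.

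The RefSeq promoter of Mir22hg, from 250 bases before to 50 after its start (GRCm38, chr11:75461289-75461588, plus strand), lies wholly in the start peak and is shown because the data bear on it. Capitals mark CACGT, the reverse complement of ACGTG, the core of the hypoxia response element and part of the E-box CACGTG.
Mir22hg promoter: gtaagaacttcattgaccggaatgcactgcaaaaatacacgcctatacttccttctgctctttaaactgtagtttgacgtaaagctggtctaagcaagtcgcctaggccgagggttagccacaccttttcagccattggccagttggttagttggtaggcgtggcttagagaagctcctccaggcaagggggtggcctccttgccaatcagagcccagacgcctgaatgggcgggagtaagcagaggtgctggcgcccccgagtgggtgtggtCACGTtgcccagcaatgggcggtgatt

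miR-142 is made almost exclusively in blood cells and is needed for lymphocytes, dendritic cells and megakaryocytes to mature normally. The peak over the start of its host transcript Mir142hg (chr11:87755283-87755784) held 387 and 319 normalized reads in Sin3B+/+ and 504 and 575 in Sin3B-/- LT-HSCs. The 2 genotypes were separate, and the log2 ratio was 0.61 (limma adjusted p = 0.00522). That is lower than the ratio of most peaks in the table, since 22.4% lay below it. The hairpin of Mir142 begins 1079 bp from the peak. The central 300 bp of the peak are shown (GRCm38, chr11:87755384-87755683, plus strand), with the E-box CACGTG in capitals.
Mir142hg peak: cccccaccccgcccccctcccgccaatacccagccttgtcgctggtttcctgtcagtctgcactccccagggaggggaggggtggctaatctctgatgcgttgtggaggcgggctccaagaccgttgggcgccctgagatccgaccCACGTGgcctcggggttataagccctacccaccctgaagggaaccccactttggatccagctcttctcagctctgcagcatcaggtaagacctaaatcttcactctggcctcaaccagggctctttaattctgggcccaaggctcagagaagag

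The cluster of miR-23a, miR-27a and miR-24-2 is driven by the myeloid transcription factor PU.1 and favours myeloid over B cell development. A peak 330 bp upstream of the Mir23a hairpin, at chr8:84207773-84208188, held 372 and 292 normalized reads in Sin3B+/+ and 500.5 and 619 in Sin3B-/- LT-HSCs. Both Sin3B-/- libraries exceeded both controls, with a log2 ratio of 0.75 (limma adjusted p = 0.000829). Relative to the table this was an average peak, with 49.3% of all peaks below it. Because the hairpins of Mir27a and Mir24-2 follow at 483 and 626 bp, the peak stands upstream of the whole cluster. It is also 940 bp from the start of the long noncoding RNA Gm26532. The central 300 bp (GRCm38, chr8:84207831-84208130, plus strand) held 2 matches to CTTCCTC, in capitals, the reverse complement of the PU.1-type motif GAGGAAG.
Mir23a peak: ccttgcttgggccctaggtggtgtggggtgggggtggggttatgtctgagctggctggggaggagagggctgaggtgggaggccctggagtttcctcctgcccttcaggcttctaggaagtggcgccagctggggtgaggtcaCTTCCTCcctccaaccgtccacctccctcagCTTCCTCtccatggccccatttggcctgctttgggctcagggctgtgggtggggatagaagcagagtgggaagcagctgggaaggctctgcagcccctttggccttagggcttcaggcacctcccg

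miR-210 is induced by hypoxia through HIF factors and restrains autoantibody production by B cells. Its peak lies 109 bp upstream of the hairpin, at chr7:141221602-141222354, with no annotated start of a protein-coding or long noncoding gene within 1000 bp of its centre. It held 761 and 623 normalized reads in the controls and 1001 and 1059 in Sin3B-/- LT-HSCs. The log2 ratio was 0.57 (limma adjusted p = 0.00786), among the smaller ones of the table, with 14.8% of peaks below it. It was no longer called without Sin3B+/+ replicate 2 (limma adjusted p = 0.0565) or without Sin3B-/- replicate 2 (limma adjusted p = 0.0861). Its central 300 bp held 1 ACGTG core and 66.0% G and C, the highest GC content among the members, shared with a peak of Mir7671.

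**Figure D2:**
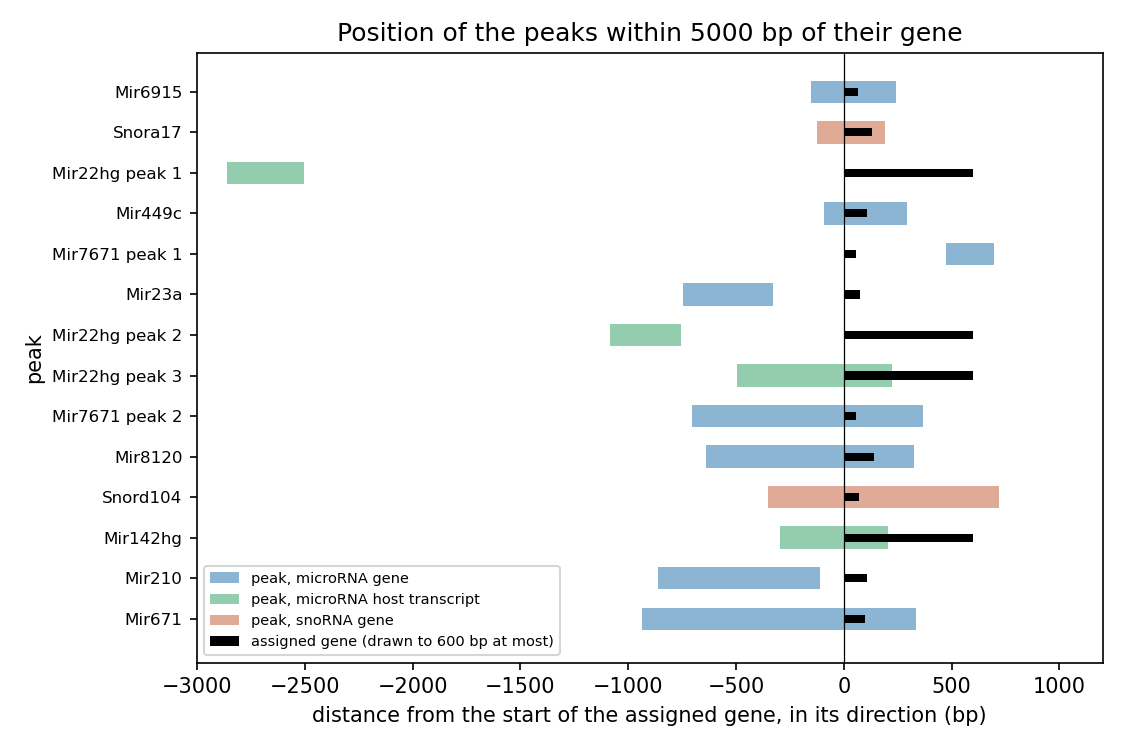
Position of the 14 peaks within 5000 bp of their assigned gene, as distance in bp from the gene's start in its direction of transcription. Coloured bars are peaks and black bars are genes, with the long host transcripts drawn only over their first 600 bp. In 7 cases the peak encloses the whole small RNA gene, and those of Mir23a, Mir210 and the upstream Mir22hg peaks stop short of it.

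Mir6915 had the largest change of all members. Its hairpin (chr10:128388832-128388900, plus strand) lies inside the peak at chr10:128388680-128389072, in an intron of Ankrd52, a subunit of a protein phosphatase complex. The peak held 14.2 and 13.7 normalized reads in Sin3B+/+ and 45.6 and 69 in Sin3B-/- LT-HSCs, or 13.9 ± 0.311 against 57.3 ± 16.5 (SD, n = 2 each), a 4.11-fold higher level. The controls agreed closely while the Sin3B-/- libraries differed between themselves by more than the controls did. The log2 change was 1.94 (limma adjusted p = 1.74e-17) and, with centred libraries, 1.18 ± 0.18 (SE, limma adjusted p = 0.00297). Leaving out 1 library at a time gave log2 ratios from 1.71 to 2.31, and 99.2% of all peaks had a lower ratio. It was also the least accessible member, with 62 and 40 steps in the controls and 73 and 69 in the Sin3B-/- libraries. A step is worth less in the controls. At no other member that gained did both Sin3B-/- libraries hold more steps than both controls. The Mir142hg peak, for example, had 1697 and 930 steps in the controls and 807 and 575 in the Sin3B-/- libraries.

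An Ankrd52 transcript of GENCODE M21 starts 414 bp from the centre of the Mir6915 peak, whereas the nearest RefSeq start of Ankrd52 is 11752 bp away. The 300 bp at the peak centre are shown as the site of the largest gain (GRCm38, chr10:128388727-128389026, plus strand). Capitals mark an ACGTG core and CTTCCTC, a PU.1-type match on the minus strand that falls inside the hairpin, at chr10:128388886-128388892.
Mir6915 peak: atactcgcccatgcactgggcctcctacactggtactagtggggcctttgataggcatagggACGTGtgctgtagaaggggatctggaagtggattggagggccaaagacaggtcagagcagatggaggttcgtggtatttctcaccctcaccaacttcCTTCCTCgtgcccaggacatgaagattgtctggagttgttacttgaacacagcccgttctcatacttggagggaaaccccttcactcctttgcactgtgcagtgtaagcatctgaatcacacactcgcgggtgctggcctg

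The peak assigned to Mir3964 was the single loss. It held 171 and 144 normalized reads in Sin3B+/+ and 73.1 and 65 in Sin3B-/- LT-HSCs, or 157 ± 19.6 against 69.1 ± 5.73 (SD, n = 2 each). The Sin3B-/- level was thus 0.438 of the control level, and the groups did not overlap. The log2 change was -1.17 (limma adjusted p = 3.31e-07) and -1.93 ± 0.13 with centred libraries (SE, limma adjusted p = 9.31e-05). However, the peak (chr15:29437574-29438288) lies 275043 bp from the hairpin, the farthest of all members. The nearest start of a protein-coding or long noncoding gene was that of Ctnnd2 at 734662 bp in GENCODE, or the RefSeq noncoding gene Gm41281 at 62398 bp, so the assignment to Mir3964 rests on position alone.

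Its central 300 bp are shown as the site that lost accessibility (GRCm38, chr15:29437782-29438081, plus strand). With 40.3% G and C and 1 CpG it had the lowest GC content of the members, and it held none of the 5 motifs searched.
Mir3964 peak: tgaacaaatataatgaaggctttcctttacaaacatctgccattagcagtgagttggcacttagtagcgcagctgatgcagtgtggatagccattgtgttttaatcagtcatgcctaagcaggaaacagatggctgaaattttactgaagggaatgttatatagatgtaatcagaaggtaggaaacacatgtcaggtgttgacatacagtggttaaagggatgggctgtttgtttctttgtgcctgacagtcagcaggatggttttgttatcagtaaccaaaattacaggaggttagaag

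Snord104 is a C/D box snoRNA and Snora17 an H/ACA box snoRNA. Their transcripts are shown because each lies whole inside its peak, with the C and D boxes of Snord104 (TGATGA and CTGA) and the H and ACA boxes of Snora17 in capitals. In Snora17 the H box letters ANANNA matched at 3 overlapping positions between bases 62 and 71.
Snord104: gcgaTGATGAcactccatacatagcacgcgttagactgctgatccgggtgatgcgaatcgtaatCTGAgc
Snora17: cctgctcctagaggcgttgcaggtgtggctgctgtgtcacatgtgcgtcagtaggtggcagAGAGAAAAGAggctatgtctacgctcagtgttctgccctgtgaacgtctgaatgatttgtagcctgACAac

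The peak over Snord104 (chr11:106500639-106501714) held 636 and 553 normalized reads in Sin3B+/+ and 818 and 1019 in Sin3B-/- LT-HSCs, a log2 ratio of 0.63 (limma adjusted p = 0.00477). It also covers the unnamed snoRNA gene Gm22711. The RefSeq noncoding gene Gm36220, in which Snord104 lies, starts 261 bp from the centre of the peak. The peak over Snora17 (chr2:26639129-26639445) held 70.7 and 50.4 normalized reads in Sin3B+/+ and 108 and 119 in Sin3B-/- LT-HSCs, a log2 ratio of 0.91 (limma adjusted p = 6.5e-05). Its RefSeq host is the snoRNA host gene Snhg7, which starts 957 bp away. At both snoRNAs the Sin3B-/- libraries lay above the controls. With 1 library left out at a time the ratio ran from 0.46 to 0.78 for Snord104 and from 0.68 to 1.17 for Snora17, and the difference between them was not tested.

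miR-449c belongs to a family of multiciliated epithelia and lies in an intron of Cdc20b, a gene of the same cells. Its hairpin sits inside the peak at chr13:113035890-113036274, which held 91 and 66.2 normalized reads in Sin3B+/+ and 139 and 141 in Sin3B-/- LT-HSCs. The groups were separate and the log2 ratio was 0.83 (limma adjusted p = 0.000224). The GENCODE start of Cdc20b is 695 bp from the peak centre.

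miR-671 directs cleavage of the circular RNA Cdr1as. Its hairpin lies in an exon of Chpf2, on the strand of that gene and opposite to Smarcd3, a subunit of chromatin remodelling complexes, inside the peak at chr5:24591177-24592451. The level was 322 and 309 normalized reads in Sin3B+/+ and 447 and 469 in Sin3B-/- LT-HSCs. This was the smallest gain of the members, with a log2 ratio of 0.54 (limma adjusted p = 0.0131) and 9.30% of all peaks below it. The ratio ran from 0.50 to 0.57 with 1 library left out, and the peak was no longer called without Sin3B-/- replicate 1 (limma adjusted p = 0.0599) or replicate 2 (limma adjusted p = 0.104).

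Mir7671, a minus strand gene, had a pair of peaks 107 bp apart. The larger one, at chr11:53763288-53764358, encloses the hairpin and rose from 1200 and 898 normalized reads to 1610 and 1748, a log2 ratio of 0.68 (limma adjusted p = 0.00198). The smaller one, at chr11:53762959-53763180, lies 417 bp downstream of the hairpin and rose from 82.6 and 64.4 to 126 and 129, a log2 ratio of 0.79 (limma adjusted p = 0.00046). The nearest gene start was that of Irf1, a transcription factor of the interferon response, at 6191 and 6945 bp. The hairpin of Mir8120 lies in the peak at chr3:65658649-65659614, which rose from 207 and 164 normalized reads to 302 and 273, a log2 ratio of 0.63 (limma adjusted p = 0.00382). With 1 library left out at a time its ratio ran from 0.48 to 0.81. RefSeq places a start of Lekr1 408 bp from the centre of that peak.

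**Figure D3:**
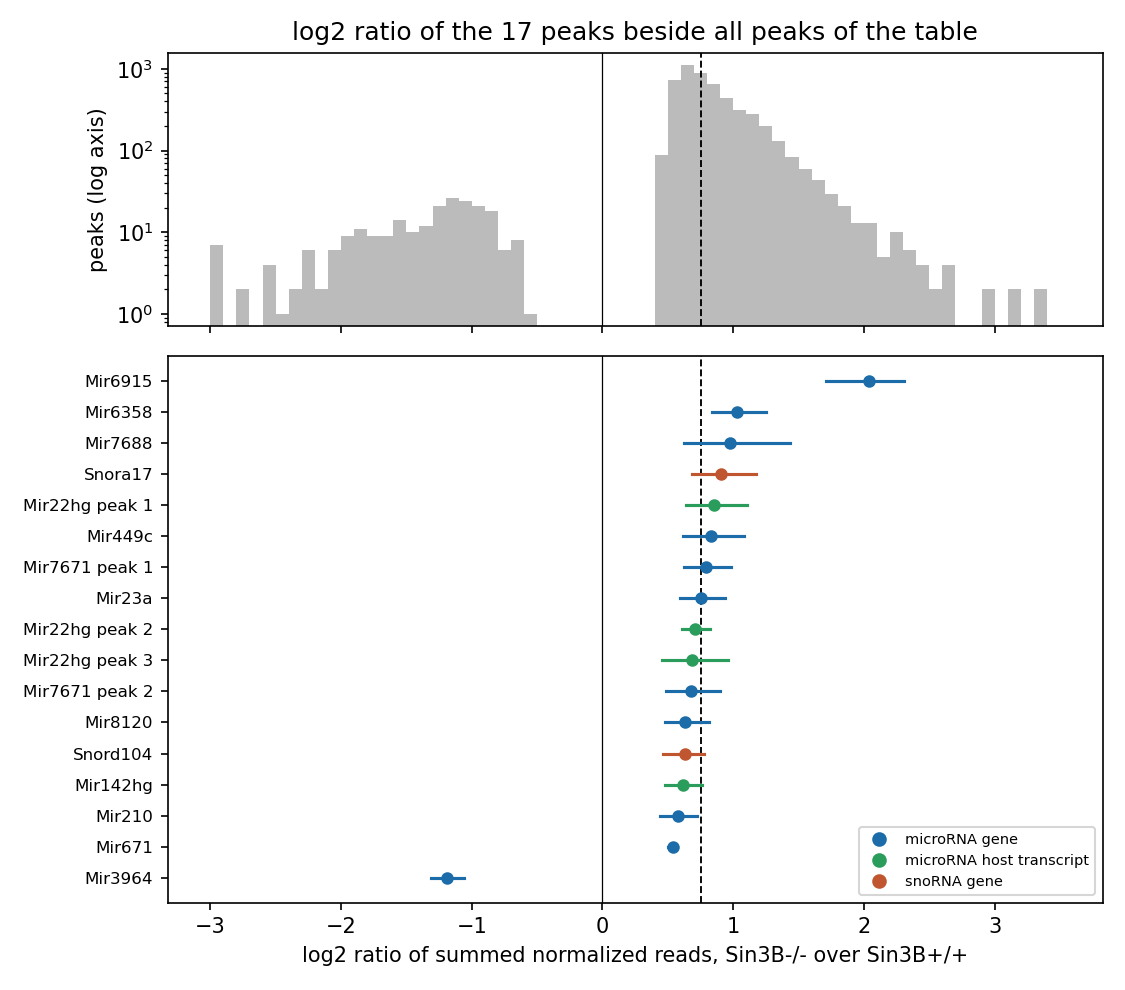
The upper panel is a histogram of the log2 ratio, Sin3B-/- over Sin3B+/+, of all 5332 peaks (log axis for the number of peaks), with values below -3 drawn in the lowest bin. In the lower panel points are the 17 peaks and horizontal lines the range with 1 library left out at a time, and the dashed line is the median of the table, 0.76. Most points lie near that line, Mir6915 lies far to its right and Mir3964 is the only point left of 0.

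The other 2 microRNA peaks lay far from their hairpins. The peak assigned to Mir7688 (chr10:93425707-93426050), 7057 bp upstream of the hairpin, held 57.7 and 32.9 normalized reads in Sin3B+/+ and 85 and 93 in Sin3B-/- LT-HSCs. Its log2 ratio of 0.97 was the least certain of the members, running from 0.62 to 1.44 as single libraries were left out (limma adjusted p = 1.08e-05). The peak assigned to Mir6358 (chr18:76200362-76201157), 29710 bp downstream of its hairpin, held 84.9 and 63.8 in Sin3B+/+ and 162 and 141 in Sin3B-/- LT-HSCs, a log2 ratio of 1.03 (limma adjusted p = 7.12e-06). With Mir6915 it was 1 of the 2 members whose level at least doubled, against 1217 peaks of the table whose log2 ratio was 1 or more. No role in blood cells is stated here for miR-7688, miR-6358, miR-6915, miR-7671, miR-8120 or miR-3964.

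Most member peaks lay close to the gene they were assigned to. Of the 17, 13 (76.5%) were within 1000 bp of it by the table's shortest distance, against 41.1% of all peaks. The median distance was 309 bp for the members and 2539 bp for the table. This distance runs to the nearer end of the gene even for a peak inside it, so peaks inside long genes come out farther. For peaks assigned to microRNA and snoRNA genes without a Mir or Snor name it ranged from 9 bp (Gm44359) to 158775 bp (Gm25096). Closeness was thus not shared by all small RNA rows. A total of 7 peaks (41.2%) held their whole gene, which was so at 0.656% of all peaks, although genes of this size are far shorter than most. The 7 were those of Mir6915, Mir7671, Snord104, Mir449c, Snora17, Mir8120 and Mir671.

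Starts of other genes, host genes included, were close to the centres of some member peaks. At 4 members, 23.5%, the peak centre was within 1000 bp of a GENCODE start of another protein-coding or long noncoding gene, against 12.7% of all peaks. These genes were Ankrd52 at Mir6915, Tlcd2 at the start peak of Mir22hg, Cdc20b at Mir449c and Gm26532 at Mir23a. Ankrd52 and Cdc20b are the hosts in whose introns Mir6915 and Mir449c lie. With RefSeq starts the count was 3, 17.6% against 14.1%, and the genes were others: Gm36220 at Snord104, Snhg7 at Snora17 and Lekr1 at Mir8120. In RefSeq, Snord104 lies inside Gm36220 and Snora17 inside Snhg7, so host genes were counted here too. Both counts leave out the start of a peak's own assigned gene. MicroRNA and snoRNA genes are not among the starts searched, so most members had none to leave out. These shares therefore do not compare members and table alike. With own starts included, 6 members (35.3%) and 44.1% of all peaks had a GENCODE start within 1000 bp of their centre.

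In all, 5 short motifs were searched on both strands in the 300 bp around the centre of each peak, and no motif contains another. Peaks narrower than 300 bp, such as the smaller Mir7671 peak of 222 bp, were thus searched past their ends. ACGTG was found in 7 of the 17 members, in 22.4% of all peaks and in 19.6% of RefSeq promoters. The 7 were the peaks of Mir6915, Mir142hg, Mir449c and Mir210, both peaks of Mir7671 and the outermost peak of Mir22hg. GAGGAAG, the PU.1-type motif, was found in 2 members, Mir6915 and Mir23a, and in 22.5% of peaks and 13.6% of promoters. TGAGTCA, the AP-1 motif, was found in 2 members, the middle peak of Mir22hg and Snora17, and in 8.03% of peaks and 5.20% of promoters. TTTGAA, the CHR element of cell cycle genes, was found in 1 member, the middle peak of Mir22hg, and in 13.6% of peaks and 17.9% of promoters. TTCCCGC, an E2F-type motif, was found in 0 members, in 4.07% of peaks and in 4.60% of promoters. The members' median GC content was 55% and that of all peaks 54%.

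Most hairpins were not touched by a peak of the table. Of 1005 microRNA genes that RefSeq places on GRCm38, 14 (1.39%) overlapped a peak and 98 (9.75%) lay within 5000 bp of 1. For each of the 98 genes the nearest peak had a higher level in Sin3B-/-, as had 5103 of all 5332 peaks. The median log2 ratio over the genes was 0.73, and genes sharing a peak, such as Mir23a, Mir27a and Mir24-2, each counted it. Of the 14 overlapping hairpins, 8 were in peaks assigned to another gene, such as Mir423 in the Nsrp1 peak (0.96). Of 146 named snoRNA genes 5 (3.42%) overlapped a peak, among them Snora16a in the peak of its host gene Snhg12 (0.80) and Snora24 in that of Snhg8 (0.65). Within 5000 bp of a peak lay 36 of them (24.7%), 35 with a higher and 1 with a lower level at the nearest peak in Sin3B-/-. The median log2 ratio was 0.67, again per gene, with the Snhg12 peak counted for several snoRNAs. The lower one was Snord123, 2372 bp from the Snhg18 peak.

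Of 82 microRNAs with a listed role in blood that RefSeq places, 11 had a peak within 5000 bp. Each such peak was higher in Sin3B-/-, as were 5103 of all 5332 peaks, and some of these microRNAs shared a peak. Beside miR-22, miR-142, miR-210 and the miR-23a cluster these were Mir223, a regulator of granulocytes, with a log2 ratio of 0.67 at 2723 bp, and Mir21a, an anti-apoptotic microRNA, with 0.66 at 2552 bp. Mir196a-1, in the Hoxb cluster, had a ratio of 1.28 at a Hoxb9 peak 4613 bp away. Mir191 and Mir425, which share a transcript inside Dalrd3, had a ratio of 0.79 at 1306 and 837 bp. No let-7 hairpin of 13 had a peak within that distance.

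The machinery that makes and uses microRNAs had 12 peaks at 7 of 27 listed genes, and limma called 12 of the 12 higher in Sin3B-/-, with a median log2 ratio of 0.91, where the same fit called 95.7% of all peaks higher. Of these, 4 were also called with centred libraries, against 7.01% of all peaks. These were a peak inside Drosha, the nuclease that frees the hairpin, and peaks of the uridyltransferases Tut7 and Tut4 and of the silencing factor Tnrc6b. All lay inside their genes, 33452 bp from the start in Drosha, 185626 bp in Tnrc6b, 8811 bp in Tut7 and 1250 bp in Tut4. Their control levels ran from 17.5 to 72.8 normalized reads, where the median peak of the table averaged 263 over all libraries. The peaks over the starts of Tarbp2, Tnrc6b and Khsrp were not called with centred libraries. The Drosha peak rose from 17.6 and 17.5 normalized reads to 93.1 and 76, a log2 ratio of 2.27, with the groups far apart. The ratios were 1.89 for Tut7, 1.33 for Tut4 and 1.55 for Tnrc6b. Drosha and Tnrc6b each had a second peak with a smaller ratio, 0.62 and 0.73, below the table median of 0.76 and not called with centred libraries. Ago2, the slicing Argonaute, had 4 peaks with ratios from 0.74 to 1.20, and Tarbp2, a partner of Dicer, had 0.58 at its start.

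Genes of snoRNA particles had 7 peaks at 5 of 20 listed genes, 7 called higher in Sin3B-/- by limma, against 95.7% of all peaks, with a median log2 ratio of 0.93. The largest was at Snu13, a protein of the C/D particle, with 1.40, which was the 1 still called with centred libraries. That peak lies inside the gene, 6740 bp from its start and 182 bp from its far end. It held 34.68 and 21.25 normalized reads in Sin3B+/+ and 69.35 and 78 in Sin3B-/- LT-HSCs. Dkc1, the pseudouridine synthase of the H/ACA particle, had 0.52. The listed noncoding host genes had 8 peaks at 6 of 28 genes, 7 higher and 1 lower in Sin3B-/-, and 4 of these rows were the Mir22hg and Mir142hg peaks described above. The lower one was the peak assigned to Snhg18, with 96.1 and 129 normalized reads in Sin3B+/+ and 65 and 51 in Sin3B-/- LT-HSCs. Its log2 ratio was -0.96 and it was called lower also with centred libraries (limma adjusted p = 0.00206).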

How the data were processed

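ATAC-Seq had been run on 4 LT-HSC libraries, 2 per genotype, grouped by the genotype in the sample labels. The authors trimmed reads, aligned them with Bowtie2, removed duplicates, called peaks with MACS2 and tested a DiffBind peak set with DESeq2, and deposited the peaks under an FDR of 0.05. The deposited values per library are a signal, normalized reads per peak, with no normalization method given in the sources used here. The deposited distances to the assigned gene, peak widths and gene coordinates are in bp. The authors' own level, fold, p-value and FDR columns were not used. Tool versions are not given in the sources used here, and peaks outside the table were not analysed here. Submitters' processing notes name mm9, but 5330 of 5332 gene IDs were in GENCODE M21 (GRCm38) and 96.6% had the same start and end there, as had all 17 members, so GRCm38 was used.

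Log2 ratios are of summed levels. limma was fitted to log2(level + 1) of all 5332 peaks without a block, and adjusted p under 0.05 was called. The count test that had been an alternative for recovered reads was not run, because the values could not be established as counts. On simulated data with 200 of 5332 peaks changed by 1 log2 unit, limma recovered 99% and falsely called 0.331% of the others. The simulated peaks had as many gains as losses, a set spread and no shift between genotypes. The real peaks were preselected and mostly shifted upwards, so these shares give no error rate for them. Members, lists and motifs were chosen with earlier results of these data known. Named were members in the blood role lists, the 5 highest and 5 lowest ratios, every loss, every gene with 2 or more peaks and the 5 nearest to their gene, which came to all members. Same-numbered libraries did not deviate together (correlation -0.10). Alternatives were a replicate block, a pseudocount of 5, a mean level of at least 50, centred libraries, leaving out each library, and other distance, promoter and annotation choices. Mature microRNAs, snoRNAs and promoters came from RefSeq on GRCm38. Software was Python 3.11.15, numpy 2.4.6, pandas 2.3.3, pysam 0.24.0, matplotlib 3.10.9, R 4.3.3 and limma 3.58.1.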

Additional observations from a re-analysis of the deposited data

How the results depend on the processing

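The 16 and 1 member calls were the same with a replicate block (16 and 1), with the crossed pairing of replicate numbers, which was added after seeing the data (16 and 1), and with a pseudocount of 5. The block changed no call of a member. With a mean level of at least 50, 15 members were called higher, since Mir6915 was not tested. Leaving out 1 library at a time gave 9 to 16 members called higher in Sin3B-/-, with the 9 coming without Sin3B-/- replicate 2, and 1 to 1 called lower. Over the same settings 58.5% to 95.6% of all peaks were called higher. The median log2 ratio then ran from 0.59 to 0.94 for microRNA peaks and from 0.61 to 0.95 for snoRNA peaks. Centring each library on its median left 1 member called higher and 1 lower, and it shifted the table median by 0.75. The median log2 ratio of the microRNA peaks was then -0.039 and that of the snoRNA peaks 0.021. The centred ratio turned negative at the peaks of Mir671 (-0.22), Mir210 (-0.17), Mir142hg (-0.14), Snord104 (-0.13) and Mir8120 (-0.10), at the larger Mir7671 peak (-0.063) and at the start and middle peaks of Mir22hg (-0.052 and -0.039). Which scaling is nearer to the cells was not tested. Distance, promoter and annotation choices kept the shares within their binomial intervals. The planned edgeR and DESeq2 alternatives on recovered reads, TMM included, were not run. Total depth is unknown, so no interval was computed from counts.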

Other observations

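The symbol rule leaves out small RNA genes without a Mir or Snor name. The table held 26 peaks assigned to genes annotated as microRNA, of which 11 are described above, and 21 assigned to snoRNA genes, of which 2 are. Of the other 15 microRNA rows 13 were higher in Sin3B-/- and 2 in Sin3B+/+, and of the other 19 snoRNA rows 15 were higher in Sin3B-/- and 4 in Sin3B+/+. The lowest log2 ratio among them was -3.11, at a peak assigned to the predicted snoRNA gene Gm23277 and 56836 bp away from it, with 207 and 206 normalized reads in Sin3B+/+ and 25 and 23 in Sin3B-/- LT-HSCs. It was chosen after its value was seen. Rnu3a, a gene of the U3 C/D box snoRNA, had a ratio of 0.69 at a peak 519 bp away.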
